A study of Bos taurus with 3 samples.

Results

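The genes described here encode the proteins of the cytosolic ribosome. They were chosen by symbol: RPL, RPS or RPLP followed by a number, or RPSA, with the kinase genes whose symbols start with RPS6K left out. The rule found 82 of 21861 genes under 81 symbols, since RPS29 has 2 identifiers. Of the 82, 41 encode proteins of the large subunit, 3 encode its stalk, and 31 encode proteins of the small subunit. A further 6 are paralogs (RPL22L1, RPS27L, RPL36AL, RPL7L1, RPL3L and RPL10L), and RPS19BP1 encodes a protein that binds RPS19 and is no part of the ribosome. FAU encodes a ribosomal protein under another symbol and is given as a partner. RPL31, RPL41 and RPS14 are not analysed here.

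The cells were primary mesenchymal stromal cells of 1 healthy, wild-type Holstein-Friesian cow in its first lactation, whose age is not given. They came from adipose tissue, from bone marrow and, as the third source, from peripheral blood. The untreated cultures were kept in DMEM of low glucose content, 30% fetal bovine serum, penicillin, streptomycin and L-glutamine until colonies appeared, and were read by 10x Genomics 3′ single-cell RNA sequencing. Each tissue gave 1 library, so no tissue had a replicate, nothing below is a test, and intervals cover counting error only. Values are unique molecular identifiers (UMIs), counted per gene and cell. CPM is the level of a gene after its summed UMIs are scaled to one total for all libraries, and since a molecule is counted once from its 3′ end, CPM is not divided by length.

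A ribosome joins a small subunit, which reads the messenger RNA, to a large subunit, which forms the peptide bond; the stalk recruits elongation factors. Messages of the ribosomal proteins share a pyrimidine tract at their 5′ end (the TOP motif), through which growth signals set how much of them is translated. They are among the most abundant messages of dividing cells. Ribosomal proteins are made in step with ribosomal RNA, and proteins left over can bind MDM2 and so stabilise p53.

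Cell calling left 6088 adipose, 9281 bone marrow and 3192 blood cells, out of libraries of 98016815 to 106322567 UMIs. Libraries shared between 4 and 10 cell barcodes. Macrophage-like cells (515 in bone marrow, 159 in blood), a bone marrow cluster of macrophage and stromal genes together (465 cells) and endothelial-like cells (39 in adipose tissue) were set aside. The remaining cells numbered 6049, 8301 and 3033 for adipose tissue, bone marrow and blood, with medians of 14403, 9106 and 24920 UMIs. The label was checked against 15 stromal markers, of which 11, 10 and 12 reached 50 CPM in these cells. The 16 macrophage markers summed to 18.3, 36.6 and 92.9 CPM. Of the 16, 1 reached 50 CPM in blood and 0 did in adipose tissue or bone marrow. C1QB, C1QC and ITGAM were at 0 in adipose tissue, PTPRC was at 0 in blood, and no macrophage marker was at 0 in bone marrow. Results below are for the remaining cells, in the order adipose tissue, bone marrow, blood, unless another population is named.

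Ribosomal protein genes took over 20% of all UMIs in each culture. The share per cell had a median of 22.4% in adipose tissue, with quartiles of 20.8% and 23.9%. It had a median of 23.7% in bone marrow, with quartiles of 22.2% and 25.2%. In blood the median was 23.1%, with quartiles of 21.7% and 24.4%. The quartile ranges of the 3 libraries overlapped. Summed over cells, the shares were 22.55% (95% interval 22.54 to 22.56%), 23.81% (23.80 to 23.82%) and 23.15% (23.14 to 23.16%). Cells differed from each other by more than counting gives: the SD over cells was 2.49, 2.29 and 2.02 points, against 0.361, 0.447 and 0.269 points from counting alone. In barcodes of 10 to 100 UMIs, which hold free RNA, the share was 25.2%, 23.2% and 27.9%.

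**Figure D1:**
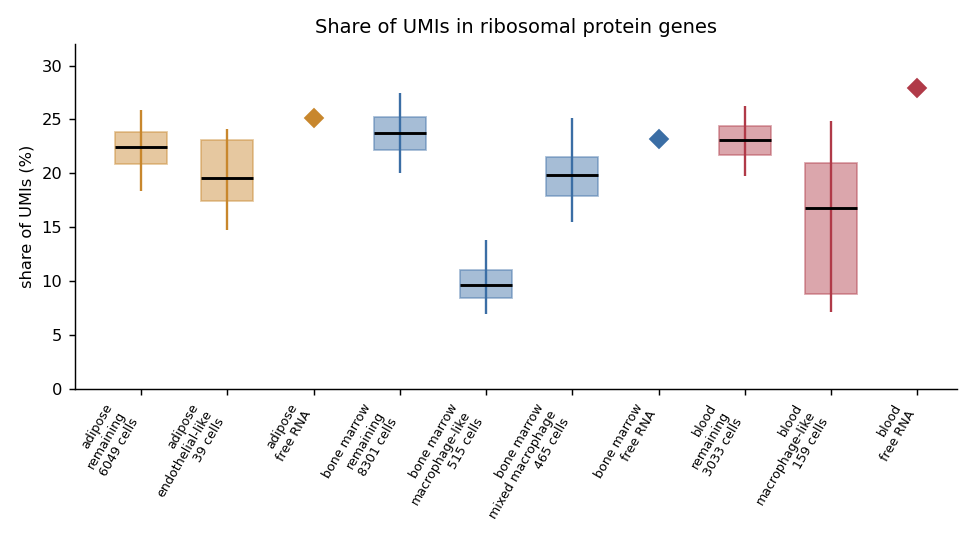
Share of UMIs in the 82 ribosomal protein genes (y axis, %), by library and population (x axis). Black lines are medians over cells, boxes span the quartiles, vertical lines run from the 5th to the 95th percentile of cells, and diamonds are the summed share in free RNA; the bone marrow macrophage-like cells, with a median of 9.61%, lie below every other population.

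Macrophage-like cells of bone marrow gave the lowest share, with a median of 9.61% and quartiles of 8.45% and 11.01%. Their median depth was 5916 UMIs, and 15 of 16 macrophage markers reached 50 CPM in them, beside 4 of 6 neutrophil markers. The neutrophil markers summed to 27993 CPM in them, more than the macrophage markers at 16180 CPM. In the blood cluster of that class the median was 16.8%, with quartiles of 8.75% and 21.0%. Those 159 cells also read 12 of 15 stromal markers at 50 CPM. Their stromal markers summed to 22981 CPM, against 32142 CPM in the remaining cells of blood, and their macrophage markers to 4174 CPM, close to the mixed bone marrow cluster (18933 and 3852 CPM) rather than to the bone marrow macrophage-like cells (3865 and 16180 CPM). The stromal share of the median cell was 0.472 of that of the library, just under the limit of 0.5 above which a cluster was called mixed. The part of stromal RNA in their share was not tested. The mixed bone marrow cluster, at 19.9%, lay between the macrophage-like and the remaining cells of its library. All 79 members that reached 50 CPM were lower in the bone marrow macrophage-like cells than in the remaining cells, with a median ratio of 0.391. How many of all genes were lower in these cells is not given. The ratio was lowest for RPL22L1, at 84.1 against 400.3 CPM, and highest for RPLP1, a stalk protein, at 4314 against 4972 CPM.

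Among the remaining cells, the share was also compared between clusters made without the ribosomal protein genes. The 4 adipose clusters of at least 200 cells had medians of 22.0% to 22.8%. In bone marrow the lowest median, 22.4%, was in the cluster led by IGFBP5, TINAGL1 and UNC13D, and the highest, 24.7%, in the one led by SERPINF1, SORBS2 and OMD. That range was wider than the range of the library medians, 22.4% to 23.7%. In blood the range was 22.5%, in the cluster led by MEOX1 and ALDH1A1, to 23.8%, in the one led by LRRN4CL. A group of 23 adipose cells led by ACTG2, CALCB (ENSBTAG00000047380) and GSTM3 stood apart at 34.8%. Its median of mitochondrial UMIs was 0.0411%, against 2.94% over the adipose cells, and its median depth was 6909 UMIs. Over single cells, Spearman's rho of the share with UMIs per cell was 0.26, 0.01 and 0.09, and with the mitochondrial share it was -0.26, -0.26 and -0.07. These are descriptions over cells of 1 library, and each pair of shares has the same denominator.

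Nearly all members were abundant messages. In the 3 libraries 69, 71 and 69 members reached 1000 CPM, and members were 33, 32 and 34 of the 50 highest genes. RPS12, a small subunit protein, was the highest in each library, at 9119, 9814 and 8532 CPM. RPLP0, the scaffold of the stalk, followed at 7186, 7070 and 8046 CPM, and RPS18 of the small subunit head at 6415, 6429 and 7065 CPM. RPS20 was also among the 5 highest by mean, and the 10 highest of each library held 26.7%, 26.2% and 27.1% of the ribosomal protein UMIs. The order of the 79 members was alike between libraries: Spearman's rho of levels was 0.96 between adipose tissue and bone marrow, 0.97 between adipose tissue and blood and 0.89 between bone marrow and blood. The part of gene annotation at the 3′ end in the order of levels was not tested.

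At the low end stood 3 members that no library read at 50 CPM. RPL3L, the muscle form of RPL3, had 12, 13 and 7 UMIs. RPL10L, which replaces RPL10 in the male germ line, had 0 UMIs in each library, which allows up to 0.0318, 0.0343 and 0.0354 CPM (3 counts of the total). The RPS29 identifier ENSBTAG00000025666 had 110, 127 and 102 UMIs, against 223043, 319323 and 157595 for ENSBTAG00000052337. Copies of near-identical sequence can share reads, and the rule for counting such reads was not stated. The next lowest were RPL7L1 (255.2, 218.2 and 169.0 CPM) and RPS19BP1 (272.6, 264.5 and 232.1 CPM).

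The subunits were balanced alike in the 3 libraries. UMIs of small subunit genes, over those of large subunit and stalk genes, gave 0.798 for the adipose library (95% interval 0.7975 to 0.7989). The ratio was 0.820 for the marrow library (0.8195 to 0.821) and 0.807 for the blood library (0.8066 to 0.8081). It was 0.868 in the bone marrow macrophage-like cells.

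The libraries were next compared gene by gene. A gene counted as apart between 2 libraries when its CPM differed at least 1.5-fold and reached 50 CPM in the higher one; 79 members could be read. The median log2 ratio of the members was -0.01 for adipose tissue over bone marrow, 0.00 for adipose tissue over blood and 0.01 for bone marrow over blood, against 0.07, 0.13 and 0.04 over all genes tested. The 3 comparisons share libraries, so their calls are not independent of each other.

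Bone marrow and blood differed most. Of 79 members, 14 were higher in bone marrow by the limit of 1.5-fold, where 8.56% of all 3130 genes tested were, and 1 of 79 was higher in blood, where 8.63% of all genes were. The share of members higher in bone marrow was thus above the background and the share higher in blood was below it.

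In the small subunit, RPS28 had the largest ratio of all members, at 2129, 3565 and 1656 CPM, which is 2.15-fold higher in bone marrow than in blood (95% interval 2.14 to 2.17). RPS21, at 1407, 2193 and 1076 CPM, was 2.04-fold higher. RPS29 (ENSBTAG00000052337), at 2363, 3648 and 1859 CPM, was 1.96-fold higher. In these 3 genes bone marrow was the highest library and blood the lowest, with adipose tissue nearer to blood. RPS27, a zinc-finger protein of the small subunit, read 1714, 2811 and 1492 CPM, a ratio of 1.88. RPS15A, at 938.1, 1265 and 755.1 CPM, had a ratio of 1.68.

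In the large subunit the same order of libraries was read for RPL37, at 2266, 3341 and 1655 CPM and 2.02-fold higher in bone marrow than in blood. RPL36 read 1435, 2097 and 1091 CPM, a ratio of 1.92. RPL38, a protein studied for its part in the translation of Hox messages, read 789.1, 1205 and 651.3 CPM, a ratio of 1.85. RPL36A (1.78-fold), RPL37A (1.74-fold), RPL34 (1.68-fold) and the stalk protein RPLP2 (1.64-fold) followed, together with the paralog RPL36AL (1.63-fold). RPL39, which lines the exit tunnel of the peptide, was just past the limit at 1.504-fold, and RPL22 was just under it at 1.49-fold. RPL17, a larger protein at the tunnel exit, went the other way, at 1109, 855.7 and 1309 CPM and 1.53-fold higher in blood than in bone marrow.

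Adipose tissue lay between the other 2 libraries for most of these genes. Against adipose tissue, 7 of 79 members passed 1.5-fold in favour of bone marrow, where 6.9% of all genes were, which is near the background. The count was 4 over all kept cells and 3 relative to the total of the members. The 7 were RPS28 (1.67-fold), RPS27 (1.64-fold), RPL37A (1.602-fold), RPS21 (1.56-fold), RPS29 (ENSBTAG00000052337, 1.54-fold), RPL38 (1.53-fold) and RPL39 (1.501-fold). In the reverse direction 0 of 79 members were called, where 5.79% of all genes were, and RPL17 had the highest ratio of adipose tissue to bone marrow, 1.296. Against blood, 3 of 79 members were higher in adipose tissue, where 6.37% of all genes were, and 0 were higher in blood, where 8.47% of all genes were. The 3 were all paralogs: RPL36AL (1.61-fold), RPL7L1 (1.51-fold) and RPS27L (1.502-fold). With TMM or DESeq2 size factors the count was 1 in adipose tissue and 1 in blood, so 50% of calls in place of 100% were in adipose tissue.

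**Figure D2:**
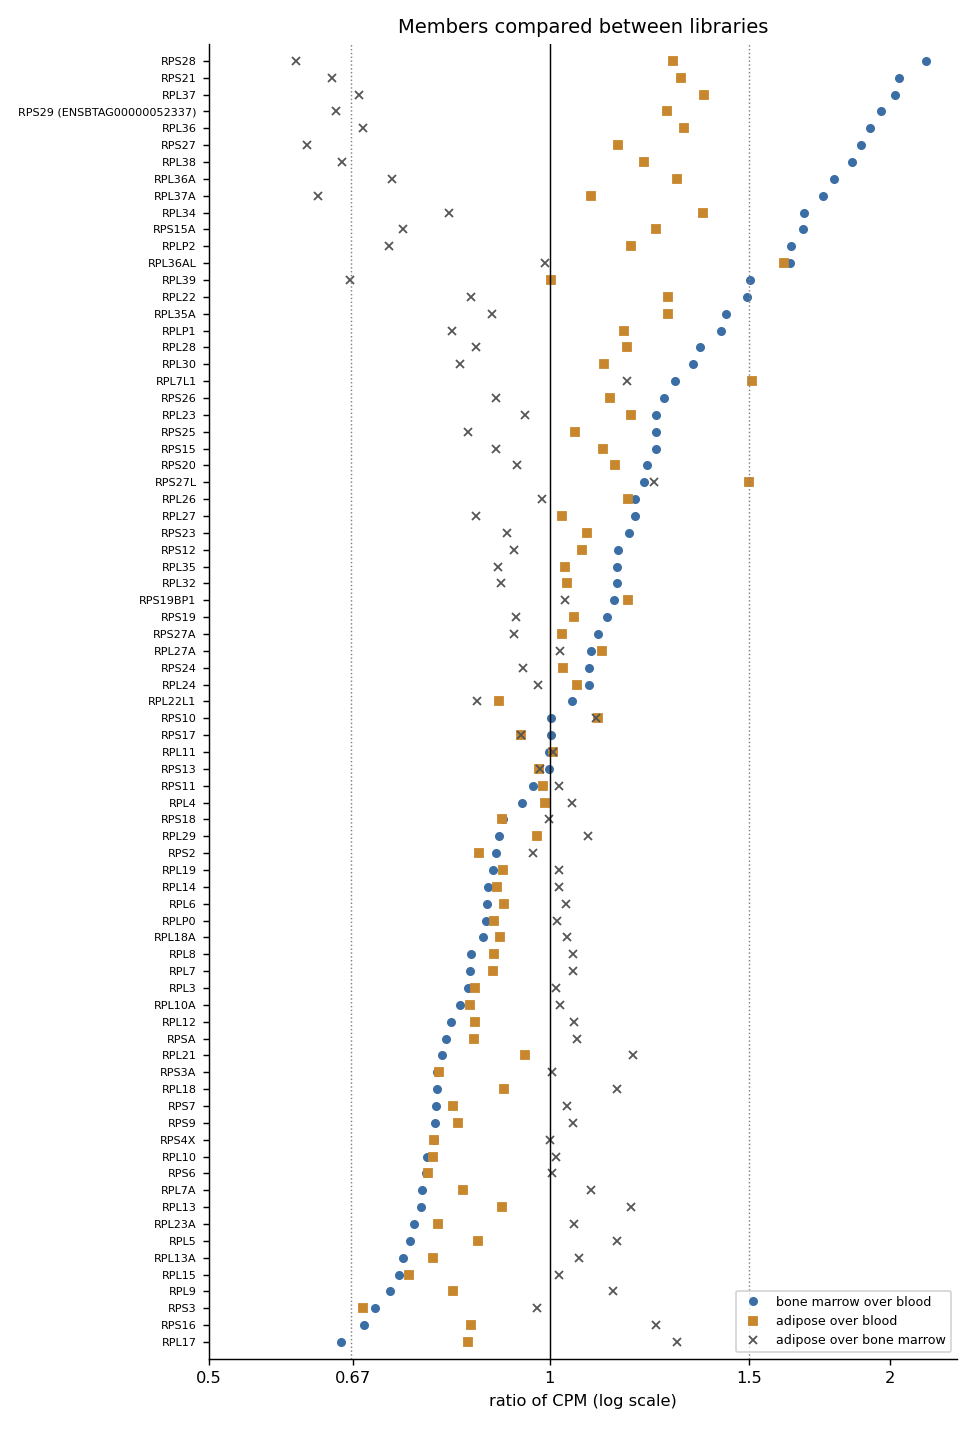
Ratio of CPM between libraries (x axis, log scale) for 77 of the 79 members read at 50 CPM or more (y axis, ordered by bone marrow over blood). Dotted lines mark 1.5-fold in either direction; the ratio of bone marrow over blood (circles) runs from 0.654 for RPL17 to 2.15 for RPS28.

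The order of members between bone marrow and blood was then read in 2 other kinds of RNA from the same libraries. In free RNA, Spearman's rho of the bone marrow over blood ratios with those of the remaining cells was 0.93 over the 79 members. All 14 members higher in bone marrow had a ratio above 1 in free RNA (1.196 to 1.89), and 6 reached 1.5. The median ratio of all members was 0.842 there, and 22 of the 79 passed 1.5-fold in favour of blood. In macrophage-like cells the rho was 0.85, with a median ratio of 0.475, 0 members at 1.5 in favour of bone marrow and 57 in favour of blood. How many of all genes passed 1.5-fold in free RNA or macrophage-like cells is not given, so these counts have no background. Set against the median member of each population, the 14 had a median ratio of 1.81 in the remaining cells, 1.71 in free RNA and 1.85 in macrophage-like cells. The 14 were chosen by the first of these 3 values. The readings are not independent: they share libraries, free RNA can come from the remaining cells themselves, and the macrophage-like cells of blood hold stromal RNA.

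**Figure D3:**
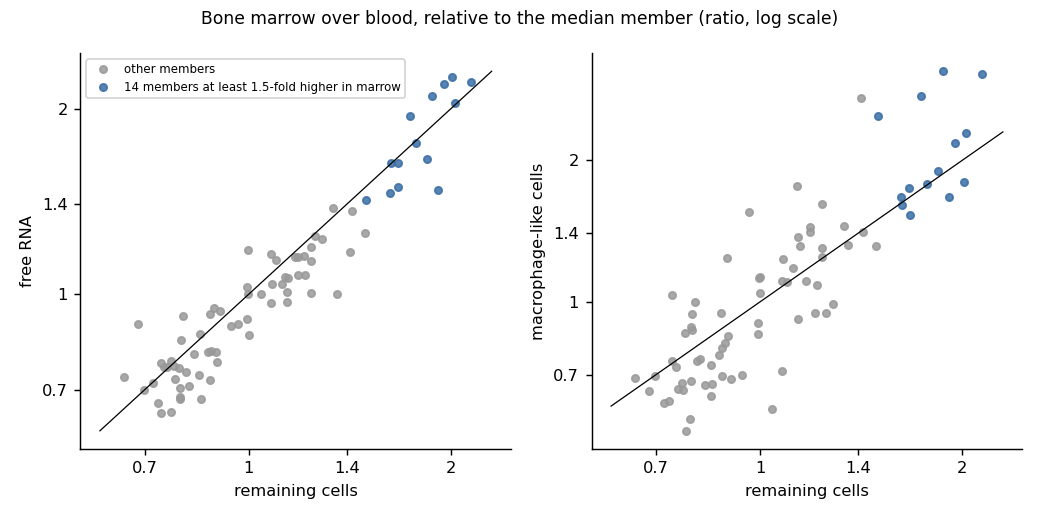
Bone marrow over blood for each of 79 members, as a ratio to the median member of the same population (log scales), in the remaining cells (x axes) against free RNA (left) and macrophage-like cells (right); the line marks equal values. The 14 members at least 1.5-fold higher in bone marrow (blue) lie above the median member in all 3 kinds of RNA.

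Messages known for small proteins outside the ribosome were compared as well. A list of 51 of them was drawn up after the values above were seen: small subunits of respiratory complexes and ATP synthase, small Sm-like proteins, thymosins and others. Of the 45 found, 25 passed 1.5-fold in favour of bone marrow over blood and 2 (CSTB and MYL6) were higher in blood, where 8.56% and 8.63% of all genes were. The median log2 ratio was 0.60 against 0.04 over all genes. COX17, a copper chaperone, read 139.5, 252.3 and 123.6 CPM. TOMM7, of the mitochondrial import pore, read 216.8, 339.0 and 146.4 CPM. For adipose tissue over bone marrow the median was -0.29, with 11 higher in the marrow library and 1 in the adipose library (6.9% and 5.79% of all genes). For adipose tissue over blood it was 0.38, with 11 of 44 higher in adipose tissue and 1 in blood (6.37% and 8.47% of all genes). Among cells of 8000 to 16000 UMIs, with 175 blood cells in that range, 15 ribosomal protein genes passed 1.5-fold in favour of the marrow library and 0 in favour of the blood library. The part of message length or library preparation in the ratios was not tested, and with 1 library each, tissue and library cannot be told apart.

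The paralogs were read against the gene they resemble, as the paralog's share of the pair's UMIs. RPL36AL held most of its pair with RPL36A in every library, at 68.2%, 61.1% and 63.2%. RPS27L, which p53 induces, held 24.8% of its pair with RPS27 among adipose cells (95% interval 24.6 to 24.96%), 13.96% among marrow cells (13.8 to 14.1%) and 20.1% among blood cells (19.9 to 20.3%). In CPM, RPS27L itself read 564.6, 455.9 and 375.8, so the low share in bone marrow stood beside a high level of RPS27. RPL22L1, whose message is known to be held down by RPL22 protein, held 18.3%, 18.1% and 24.0% of its pair, and here the level of RPL22 differed more (1545, 1813 and 1213 CPM) than that of RPL22L1 (345.1, 400.3 and 382.6 CPM). RPL7L1, a nucleolar relative of RPL7 that acts in ribosome assembly, held 10.4%, 9.39% and 6.39%. In the bone marrow macrophage-like cells RPL22L1 held 11.01% and RPS27L 6.32% of their pairs. Reads shared between a paralog and its partner may have been split by a rule that was not stated.

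Paralogs were also among the members that varied most over the clusters of a library. The highest over the lowest cluster, among those of at least 200 cells, had a median of 1.06, 1.12 and 1.11 over the 79 members, against 1.19, 1.248 and 1.32 over 2729 genes. A ratio of 1.2 was reached by 2, 7 and 8 of the 79 members. The median over all genes was just under 1.2 in adipose tissue and above it in bone marrow and blood. The clusters were made without the ribosomal protein genes, from variable genes that the 2729 can include. The lower median of the members was thus partly set by the method. RPS27L was the most variable member in bone marrow, at 395.2 to 542.6 CPM, and in blood, at 286.4 to 483.8 CPM. In blood its highest cluster was that led by MEOX1 and ALDH1A1, where RPL22L1 was at its lowest (287.5 against up to 418.3 CPM). RPL7L1 was the most variable member in adipose tissue, at 212.6 to 295.9 CPM.

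Cycling was read as the share of a cell's UMIs in genes of S phase (42 of 43 listed symbols found) and of G2 and M phase (55 of 55 found). Cells of each library were split at the quartiles of that share into 4 groups of equal size, from the bottom to the top group. It is a range rather than a cell type: 95 to 592 cells of an outer group lay within 10% of a group limit. The median cycling share ran from 0.600% in the bottom group to 1.58% in the top group of adipose tissue, from 0.408% to 1.501% for marrow cells and from 0.240% to 1.56% for blood cells.

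The ribosomal protein share was lower in more highly cycling cells of every library. From the bottom to the top group the medians were 23.1%, 22.6%, 22.3% and 21.7% in adipose tissue. In bone marrow they were 24.9%, 23.9%, 23.3% and 22.9%. In blood they were 24.0%, 23.2%, 22.9% and 22.3%. The top group differed from the bottom group by -1.47, -1.98 and -1.63 percentage points, and the quartile ranges of the outer groups overlapped in each library. The top group was below the bottom group within each of the 15 clusters of at least 200 cells as well, by -0.726 to -1.92 points. Over cells, Spearman's rho of the 2 shares was -0.26, -0.33 and -0.30.

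The number of ribosomal protein UMIs per cell did not follow the share. The median of ribosomal protein UMIs per cell was 3309 in the bottom and 3294 in the top group of adipose tissue. It was 2111 and 2456 in bone marrow, and 5385 and 6605 in blood. Total UMIs per cell were higher in the top group in each library, at 15652 against 14250, 10703 against 8476 and 29738 against 22651. Among cells of 8000 to 16000 UMIs the share still differed by -1.97, -1.78 and -1.26 points, with 175 blood cells in that range. With the cycling genes and histones left out of the total, the differences were -1.25, -1.69 and -1.32 points.

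**Figure D4:**
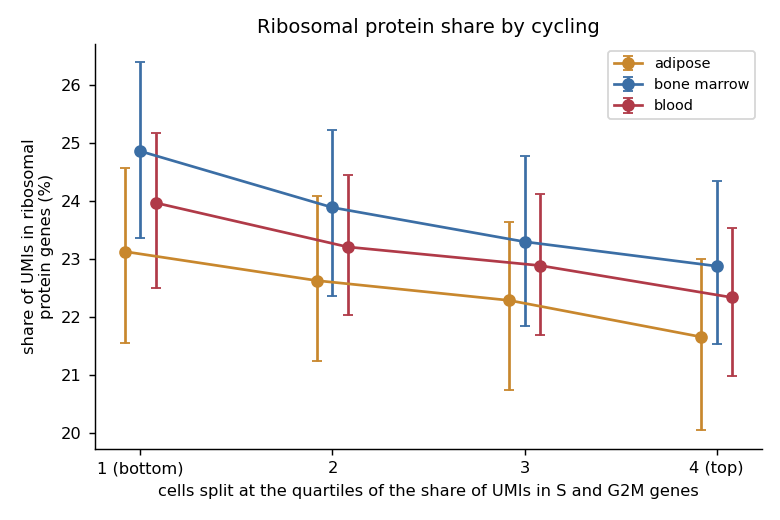
Median share of UMIs in ribosomal protein genes (y axis, %) in 4 groups of cells split at the quartiles of the cycling share (x axis), for each library; bars span the quartiles over cells and the y axis does not start at 0. Each line runs downward, from 23.1% to 21.7% for adipose cells, 24.9% to 22.9% for marrow cells and 24.0% to 22.3% for blood cells.

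The lower share was spread over most members in small steps. In CPM, the top over the bottom group was below 1 for 75, 72 and 74 of 79 members, with medians of 0.932, 0.918 and 0.939, against 1.03, 1.06 and 1.07 over all 2729 genes tested. In all 3 libraries 70 of 79 members were below 1, where 31.4% of all genes were; this number was 23 relative to the total of the members, and 26 over all kept cells. By the limit of 1.2-fold in each library, 0 of 79 members were higher with cycling, where 20.9% of all genes were, and 0 were lower, where 6.74% of all genes were. Here and below, the cycling genes that sorted the cells were not taken out of all genes. The sorting itself raises their ratios, and so the share of all genes higher with cycling.

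By the mean log2 ratio over the libraries, RPS27L was lowest, at 0.83, 0.70 and 0.93. RPL37A (0.88, 0.85 and 0.86), RPS27 (0.89, 0.85 and 0.86) and RPS3A (0.88, 0.85 and 0.89) followed. These 4 were below 1 in each library. In blood RPS27L lay near the median member (0.939), above the other 3. At the other end RPL7L1 read 1.203, 1.17 and 1.297: its level in the bottom and top groups was 212.1 and 255.1 CPM in adipose tissue, 183.3 and 214.1 CPM in bone marrow, and 135.3 and 175.5 CPM in blood. RPL36AL (1.01, 1.01 and 1.06) and RPL4 (1.02, 1.03 and 1.01) were above 1 in each library as well. Counting intervals reached 1 for RPL36AL in adipose tissue and bone marrow and for RPL4 in blood. RPL13 and RPL21 completed the 5 highest, at 0.98 to 1.03.

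**Figure D5:**
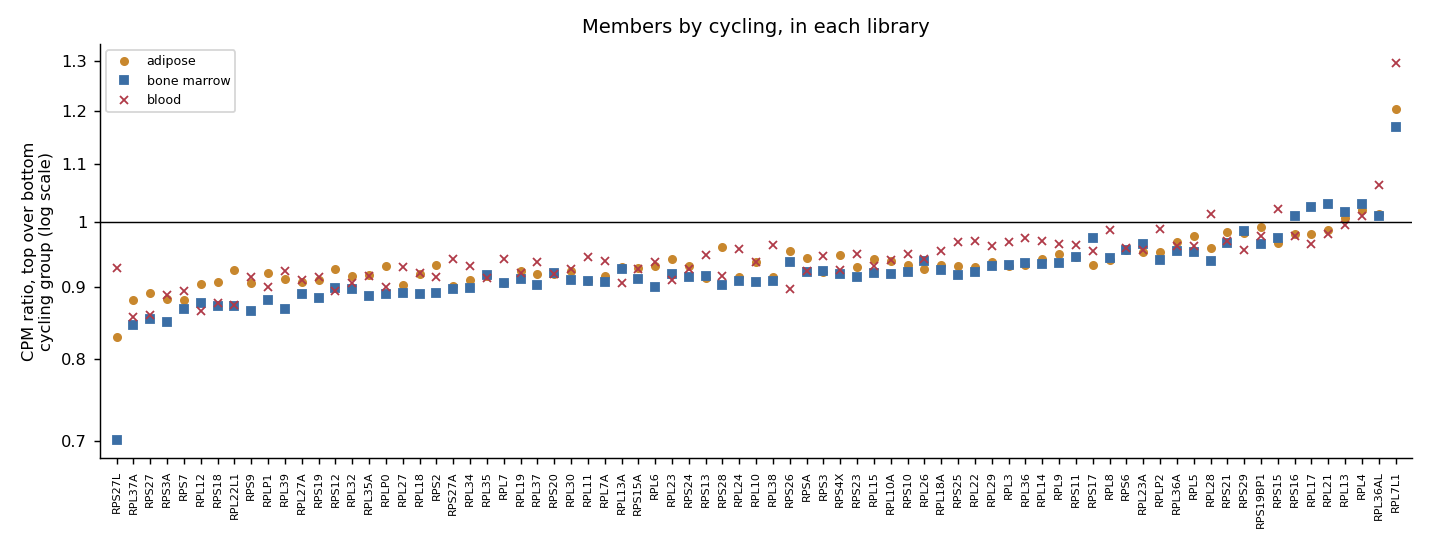
Ratio of CPM in the top over the bottom group by cycling (y axis, log scale) for 77 of 79 members (x axis, ordered by the mean log2 ratio), in each library. Most points lie below 1, RPS27L is lowest in bone marrow at 0.70, and RPL7L1 is above 1 in each library.

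Genes that act with the ribosome were read the same way, from lists drawn up with earlier results of these data known. Of 6 partners, 5 were below 1 in all 3 libraries, where 31.4% of all genes were. The 5 included RACK1, a scaffold on the small subunit (0.91, 0.91 and 0.94), FAU, made with a ubiquitin-like protein (0.88, 0.89 and 0.94), BTF3 and TPT1 (0.88, 0.83 and 0.81). Of 16 translation factors and other genes with TOP messages, 8 were below 1 in all 3, where 31.4% of all genes were, and 5 were above 1. EEF1A1, which brings transfer RNA to the ribosome, read 0.96, 0.88 and 0.92. HNRNPA1, an RNA-binding protein, was the 1 of these 16 past 1.2-fold in each library, a share below the 20.9% of all genes, at 1.29, 1.22 and 1.44.

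Genes of ribosome assembly were mostly higher in the top group. Of 14 that could be read, 13 were above 1 in all 3 libraries. The share of all genes above 1 in all 3 is not given, but the medians over all genes were above 1 too (1.03, 1.06 and 1.07). By the limit of 1.2-fold in each library 9 of the 14 were higher and 0 lower, where 20.9% and 6.74% of all genes were. The median ratios of the 14 were 1.296, 1.36 and 1.41. DKC1, which modifies ribosomal RNA, read 1.38, 1.5 and 1.85. NOP56, of the box C/D particles, read 1.51, 1.41 and 1.65, and UBTF, a factor of RNA polymerase I, read 1.57, 1.66 and 1.73. Of 57 mitochondrial ribosomal protein genes, 9 were higher and 0 lower by that limit, so the share higher was below that of all genes. In all 3 libraries 44 of the 57 were above 1 and 4 were below 1, where 31.4% of all genes were below 1. MRPL51 read 1.295, 1.43 and 1.47. Of 5 genes of growth and translation control, 1 was higher, near the share of all genes, and 0 were lower: EIF4E, the cap-binding protein (1.29, 1.39 and 1.55). Of 3 surveillance genes read, MDM2 (0.71, 0.71 and 0.69) and CDKN1A, a p53 target that halts the cycle (0.48, 0.40 and 0.44), were lower in each library. RPS27L, which p53 also induces, passed 1.2-fold in adipose tissue and bone marrow but not in blood.

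The same lists were read between libraries. Of 15 ribosome assembly genes, 6 passed 1.5-fold in adipose tissue over blood, where 6.37% of all genes did. Of 16, 6 passed in bone marrow over blood, where 8.56% of all genes did. In the reverse directions 0 passed, against 8.47% and 8.63% of all genes, and between adipose tissue and bone marrow 0 of 16 passed either way. In each pair most genes of the list were not called. DKC1 read 352.8, 352.2 and 213.9 CPM. Of the mitochondrial ribosomal proteins, 6 of 62 were higher in adipose tissue, and 4 of 59 in bone marrow, than in blood, which is near the shares of all genes. The 6 partners gave 0 calls in each pair.

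Cell by cell, members were weakly correlated with each other. With each cell thinned to 3000 UMIs, Spearman's rho between a member and the total of the other members had a median of 0.26, 0.24 and 0.18. It was above 0 for 79, 75 and 78 of 79 members, while the median over 1241 other genes was 0.11, 0.10 and 0.10. RPS18 (0.38, 0.40 and 0.35) and RPS12 (0.37, 0.36 and 0.34) were highest. RPL7L1 (0.03, 0.02 and -0.01), RPS19BP1 (0.05, 0.01 and 0.01), RPL4 and RPL17 were lowest. RPL4 and RPL17, both proteins of the large subunit, were thus at the low end beside the assembly paralog and the gene that encodes no ribosomal protein. These values are weak, as sparse counts give, and are a description of cells within 1 library. RPL7L1 and RPS19BP1 were also among the members of lowest level, and the 1241 other genes were not matched to the members for level. The part of level in the rho values was not tested.

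The 8 other genes most like the ribosomal protein share, by the mean rho over the 3 libraries, included NPAS2, EEF1B2 (0.32, 0.34 and 0.28), NME2, FAU, EEF1D, SSR4 and BTF3. FAU encodes a ribosomal protein, EEF1B2 and EEF1D are subunits of an elongation factor complex, and BTF3 is part of the nascent chain complex. NPAS2, named for a transcription factor of the circadian clock, read 3215, 4407 and 2998 CPM with rho of 0.37, 0.39 and 0.28. In the RefSeq table of ARS-UCD2.0, another assembly than that of the counts, RPL31 is the next gene but one after NPAS2, and whether reads of RPL31 were counted as NPAS2 was not tested. The 8 least like were MKI67 (-0.13, -0.16 and -0.12), CENPF, TPM4, INHBA, MYH9, ASPM, CSF1 and COL6A1. MKI67, CENPF and ASPM are genes of dividing cells, and TPM4 and MYH9 encode parts of the contractile cytoskeleton.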

How the data were processed

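The deposited values are counts, whole UMIs by gene and by barcode. The authors made them with Cell Ranger. Its version is 4 per the file headers but 6.1.1 per the submitters' processing notes, which also name the build ARS-UCD1.2. Treatment of reads that match several genes was not given in the sources used here. The matrices hold 1472552 to 2479370 barcodes per library and were not reduced to cells. Cells were barcodes whose total reached 4438.5 (adipose), 4414.2 (bone marrow) or 7488.9 UMIs (blood), which is the 99th percentile among the 3000 largest totals, divided by 10; they also had at least 500 genes and at most 20% mitochondrial UMIs; 0 were removed by the last 2 limits. Scrublet called 2 of 18561 cells, and no cells were removed as doublets. Why it called so few was not examined, so doublets may remain. Clusters were made per library with scanpy 1.11.5 without the ribosomal protein genes (2000 variable genes, 30 components, 15 neighbours, Leiden resolution 0.5, seed 1). A cluster was named from at least 3 markers among its 50 leading genes, and as mixed where the stromal marker share of its median cell was at least 0.5 of that of the library's median cell. Names rest on these rebuilt clusters.

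UMIs were summed over cells; ratios and shares carry exact 95% intervals for counting error, and UMIs are not independent biological samples. Genes were compared where the higher library of a pair, or a cycling group in each library, reached 50 CPM; calls needed 1.5-fold between libraries and 1.2-fold in each library by cycling. Named members are those apart in a pair, the 5 highest and 5 lowest, the 5 at each end by cycling, and paralogs; other genes are the 8 at each end of likeness (at least 100 CPM in each library) and list members that were called or highest. Not every such list member is given, and a few named by the rule are not reported here. The members and lists were chosen with earlier results of these data known. Alternatives included edgeR 4.0.16 TMM and DESeq2 1.42.0 size factors, used for scaling without a test. The calling rules were run on simulated counts with known folds and counting error only. Such counts hold no variation between libraries, so they cannot show how far calls from single libraries would repeat. The listed symbols NAP1L1, NCL, UNG and S100A6 were not matched. Gene names are those of the files. No sequences or coordinates are given.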

Additional observations from a re-analysis of the deposited data

How the results depend on the processing

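No paired analysis was possible because each tissue has 1 library. Under alternative settings 84 values counted as the same and 109 as moved. The same meant within the main interval or within 1.5 times the main count. For Spearman's rho with cycling it meant only the sign of the main difference. Only the differences by cycling and their rho could change sign, and 0 did. The balance of calls between bone marrow and blood did turn, from 14 against 1 to 6 against 22 in free RNA and 0 against 57 in macrophage-like cells, and that between adipose tissue and bone marrow turned from 0 against 7 to 1 against 0 in free RNA. No share over all genes stands beside the counts in free RNA or macrophage-like cells. The cause of each move was not tested beyond what a setting itself changes. Blood held 175 cells in the window of 8000 to 16000 UMIs. Free RNA, macrophage-like cells, the removal of the 23-cell cluster and values within clusters were chosen after seeing the data.

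The median share (main 22.4%, 23.7% and 23.1%, in the order adipose tissue, bone marrow, blood) was 22.4%, 23.4% and 22.96% over all kept cells, 22.6%, 23.7% and 23.1% with the UMI threshold doubled, and 22.4%, 23.6% and 22.4% in the depth window. It was 23.1%, 24.9% and 24.0% in the bottom cycling group, 23.1%, 24.4% and 23.7% without mitochondrial genes in the total, and 22.8%, 24.1% and 23.4% without cycling genes and histones. It was 22.1%, 23.5% and 22.9% without paralogs and RPS19BP1, and 22.6%, 23.8% and 23.1% from summed UMIs. With all barcodes of at least 1000 UMIs bone marrow gave 23.2% and blood 22.8%. Without the 23 cells adipose tissue gave 22.4%.

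Members higher in bone marrow than in adipose tissue (main 7) were 4 over all kept cells, 3 relative to the total of the members, 0 at 2-fold and 0 in free RNA, where 1 was higher in adipose tissue. Members higher in adipose tissue than in blood (main 3) were 1 with TMM factors, 1 with DESeq2 size factors and 0 at 2-fold. Members higher in blood than in adipose tissue (main 0) were 1 in the depth window, 1 with TMM factors, 1 with DESeq2 size factors and 3 in free RNA. Members higher in bone marrow than in blood (main 14) were 3 at 2-fold, 6 in free RNA and 0 in macrophage-like cells. Members higher in blood than in bone marrow (main 1) were 2 over all kept cells, 0 in the depth window, 0 at 2-fold, 22 in free RNA and 57 in macrophage-like cells.

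The difference in share by cycling kept its sign in each alternative. It was -1.97, -1.78 and -1.26 points in the depth window, -1.25, -1.69 and -1.32 without cycling genes and histones in the total, -1.16, -1.77 and -1.67 by the G2M list, -1.28, -1.90 and -0.969 by the S list, -2.55, -2.94 and -2.33 between the outer 10% of cells, and -1.68, -1.32 and -1.28 as the median over clusters. Over all kept cells it was -1.12 in bone marrow and -1.48 in blood, and without mitochondrial genes -1.67 in blood. Members at least 1.2-fold higher with cycling (main 0) were 1 over all kept cells and 1 relative to the members' total. At 1.1-fold 1 was higher and 7 were lower. Members below 1 in each library (main 70) were 26 over all kept cells and 23 relative to the members' total.

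The small over large subunit ratio was 0.795 in adipose tissue and 0.805 in blood in the depth window, 0.802, 0.826 and 0.819 in the bottom cycling group, 0.691, 0.705 and 0.7004 without the 5 most abundant of each subunit, and 0.822 in bone marrow over all kept cells. In the bottom cycling group RPL22L1 held 18.5%, 18.5% and 25.2% of its pair, RPS27L 25.9%, 15.5% and 19.7%, RPL36AL 67.2%, 59.2% and 61.2%, and RPL7L1 8.33%, 7.62% and 5.06%. In the depth window RPL22L1 held 18.3% in bone marrow and 23.1% in blood, RPS27L 13.4% and 22.4%, and in adipose tissue and blood RPL36AL held 68.9% and 63.7% and RPL7L1 10.7% and 6.75%. Over all kept cells of bone marrow RPL22L1 held 17.8% and RPS27L 13.7%. Of the 8 genes most like the share, 4 stayed with Pearson's r of log2(CPM + 100). Of the 8 least like, 5 stayed at 6000 UMIs per cell, 3 over all kept cells and 4 with Pearson's r.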
